A study of Mus musculus with 15 samples.

Results

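Myosin, troponin and myosin-binding genes of the sarcomere were examined in RNA from sorted cardiomyocyte nuclei of mouse ventricular muscle. The set holds 10 genes, taken by symbol from the deposited table of 55536 genes: the myosin heavy chains Myh6, Myh7 and Myh7b, the troponins Tnni1, Tnni3, Tnnt2 and Tnnc1, the myosin light chains Myl2 and Myl3, and Mybpc3. Of these, 9 had enough reads to be among the 17455 genes tested, and Tnni1 did not. Nuclei had been sorted for Pcm1, a centriolar satellite protein that marks cardiomyocyte nuclei, and ribosomal RNA was removed before directional libraries were made. The 15 libraries carry labels of Pgr genotype (Pgr_KO or Pgr_WT) and of sex, which give 4 knockout females, 3 wild-type females, 4 knockout males and 4 wild-type males. Pgr is the gene of the progesterone receptor, which acts as a transcription factor once it binds its hormone. The design asks how the knockout label and sex go with transcription in cardiomyocytes. No age, strain background or allele of Pgr is given in the labels, the tissue label carries the numbers 3 and 6 with no unit, and nothing says whether replicates are separate animals or pools, so each p-value measures the spread between these libraries alone.

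Myosin heavy chain is the motor of the sarcomere, and its head is regulated by light chains, by myosin-binding protein C and, through the thin filament, by the troponin complex. Mouse ventricle replaces isoforms around birth. The slow chain Myh7 gives way to the fast chain Myh6, and the fetal troponin I, Tnni1, gives way to the cardiac one, Tnni3. Ratios of Myh6 to Myh7 and of Tnni3 to Tnni1 are therefore used as markers of cardiac maturation and of stress, in which Myh7 can return.

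Each of the 3 heavy chain genes also hosts a microRNA. Their mature sequences are shown because they mark the link between the heavy chain genes, with bases 2 to 8, the seed, in capitals (RefSeq, GRCm38.p6).
miR-208a-3p: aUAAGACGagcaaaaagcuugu
miR-208b-3p: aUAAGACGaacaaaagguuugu
miR-499-5p: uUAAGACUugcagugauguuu
miR-208a-3p lies in an intron of Myh6 (chr14:54949072-54949093, minus strand), miR-208b-3p in an intron of Myh7 (chr14:54975710-54975731, minus strand) and miR-499-5p in an intron of Myh7b (chr2:155622893-155622913, plus strand). The seeds of miR-208a-3p and miR-208b-3p are equal in 7 of 7 bases, and that of miR-499-5p matches them in 6 of 7. The hairpin genes Mir208a, Mir208b and Mir499 had 0 reads in all 15 libraries, and their levels are not reported.

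Myh6 (chr14:54941921-54966927) and Myh7 (chr14:54970684-54994626) lie 3756 bases apart on the minus strand in GRCm38. These are their spans in the deposited table. The 250 bases before a start that RefSeq lists for each gene are shown because these neighbours are the isoform pair compared here. The RefSeq start is 54966607 for Myh6, which lies inside the table's span of the gene, as the window does, and 54994626 for Myh7, which is the end of the span. Capitals mark GGAATG, the core of the MCAT element that TEAD factors bind, searched on both strands (as GGAATG or CATTCC).
Myh6 promoter, chr14:54966608-54966857, minus strand: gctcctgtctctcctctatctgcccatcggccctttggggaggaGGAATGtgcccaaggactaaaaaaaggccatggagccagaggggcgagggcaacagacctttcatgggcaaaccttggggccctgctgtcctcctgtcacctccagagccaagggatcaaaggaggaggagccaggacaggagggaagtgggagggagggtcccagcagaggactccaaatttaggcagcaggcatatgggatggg
Myh7 promoter, chr14:54994627-54994876, minus strand: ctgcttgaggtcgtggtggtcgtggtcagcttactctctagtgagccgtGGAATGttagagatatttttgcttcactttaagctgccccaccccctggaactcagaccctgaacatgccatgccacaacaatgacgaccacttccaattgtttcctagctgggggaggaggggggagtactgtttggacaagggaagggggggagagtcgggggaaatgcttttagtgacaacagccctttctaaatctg
Each of these windows holds 1 match, 206 to 201 bases before the RefSeq start in Myh6 and 201 to 196 bases before it in Myh7. Of the 2 windows listed for Myh7, the more upstream is shown, and the other holds no match. Of all 32851 RefSeq windows of this length, 12.6% hold a match, and of the 14 windows listed for the 10 genes 5 do. A match is a description of these letters and not a binding site.

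**Figure D1:**
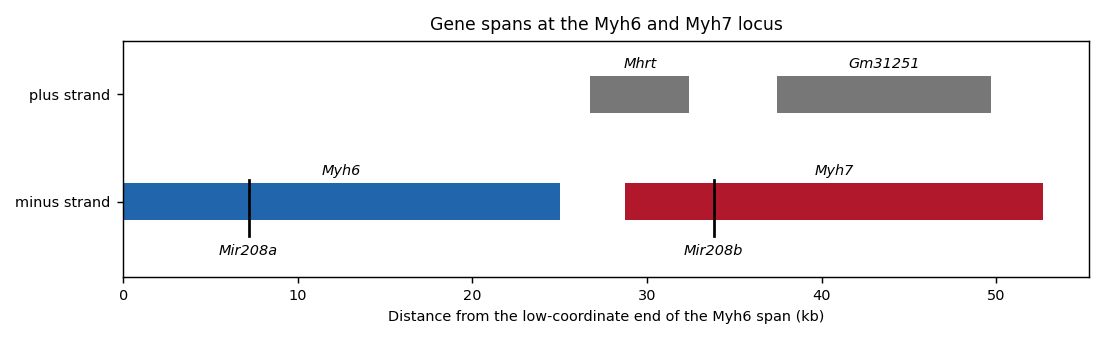
Gene spans at the Myh6 and Myh7 locus in kilobases from the low-coordinate end of Myh6, with the minus strand below and the plus strand above. The antisense RNA Mhrt covers 3666 bases of the Myh7 span and Gm31251 lies wholly inside it.

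Total counts ran from 24397346 to 139418751 per library, with a median of 49942678. CPM give a gene's counts relative to the library's size, which was scaled by TMM (trimmed mean of M values). The targeted gene went against its label: Pgr stood at 8.69 to 12.5 CPM in the libraries labelled knockout female and 0 to 0.267 CPM in those labelled wild-type female, and at 6.10 to 7.15 CPM in those labelled knockout male and 0 to 0.166 CPM in those labelled wild-type male. Every direction below is therefore one between labels. Of 10 cardiomyocyte markers 9 were tested, the other, Myom1, being listed at 0 reads, and the summed level of the list was 56986 to 92600 CPM in knockout females, 76425 to 83674 in wild-type females, 73527 to 93624 in knockout males and 76898 to 92515 in wild-type males. Markers of fibroblasts and of endothelial cells varied widely within each group. The summed level of 10 fibroblast genes was 43.1 to 1255 CPM in knockout females, 82.4 to 636 in wild-type females, 44.8 to 741 in knockout males and 42.3 to 503 in wild-type males. That of 10 endothelial genes was 20.1 to 651 CPM in knockout females, 38.5 to 407 in wild-type females, 30.2 to 355 in knockout males and 20.4 to 370 in wild-type males. None of these genes was at 0 throughout, and 10 of 10 in each list had a higher estimate under the knockout label in each sex. None of them had an unadjusted edgeR p below 0.05 in either sex. Genes of a list share libraries, so 10 of 10 are not 10 independent observations. Of 8 mural genes 6 had a higher estimate in females and 7 in males, and of 8 leukocyte genes 7 and 3. The summed mural level varied less, at 489 to 582 CPM in knockout females, 515 to 545 in wild-type females, 520 to 541 in knockout males and 493 to 633 in wild-type males. The knockout female replicate 2, wild-type female replicate 2 and wild-type male replicate 2 held reads of genes of the other sex. Fewer nuclei of a type and less RNA per nucleus cannot be told apart in such bulk samples.

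The libraries also differed in the levels of genes of high against low GC content. For each library a GC gradient was taken over 12922 genes outside the set: the median log2 deviation from the gene's own mean in the quintile of genes richest in GC (at least 55.0%) minus that in the poorest quintile (at most 44.3%). It was -0.64 to -0.32 in 6 libraries and 0.10 to 0.48 in the other 9. The 6 are 3 of 4 knockout females (replicates 2, 3 and 4), 1 of 3 wild-type females (replicate 2), 0 of 4 knockout males and 2 of 4 wild-type males (replicates 2 and 3). Pcm1 itself was 205 to 239 CPM in these 6 and 135 to 175 CPM in the others. Whether the gradient comes from the preparation of the libraries or from the RNA itself was not tested. The transcripts of the 10 genes have 50.9% to 59.7% GC, which places them at the 58.1 to 95.9 percentile of tested genes. GC content here is that of spliced transcripts, whereas the counts include introns, so it describes only part of the counted sequence.

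Levels of the 10 genes were compared per length, here CPM per kilobase of the gene span. Introns are included, since the deposited counts cover whole spans. Tnnt2, the tropomyosin-binding troponin subunit, averaged 199 ± 40.1 CPM per kilobase (SD, n = 15) and Myh6 192 ± 44.1, and these neighbours in the order did not differ beyond their spread, Tnnt2 being the higher in 11 of 15 libraries. Myl2, the ventricular regulatory light chain, stood at 44.2 ± 10.3, Mybpc3, myosin-binding protein C, at 40.3 ± 10.9 and Tnni3 at 34.9 ± 7.43 CPM per kilobase. Mybpc3 was below Myl2 in 14 of 15 libraries and above Tnni3 in 12 of 15. From Tnni3 downward each gene was above the next in 15 of 15 libraries: Tnnc1, the calcium-binding subunit, averaged 25.8 ± 5.28, Myh7b 13.1 ± 3.51, the essential light chain Myl3 7.05 ± 1.38, Myh7 4.87 ± 1.93 and Tnni1 0.0020 ± 0.0014 CPM per kilobase. Myh6 stood above Myh7, and Tnni3 above Tnni1, in 15 of 15 libraries. The order depends on the spans, which differ widely, such as 27.9 kb for Myl3 and 3.42 kb for Tnnc1. In CPM, without regard to length, Myl3 averaged 197, above Tnnc1 at 88.02 and near Tnni3 at 207. The place of Myl3 below Tnnc1 therefore rests on its longer span. Myh7b, at 302 CPM, was above Myl3 in either unit.

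Myh6, the fast heavy chain of adult mouse ventricle, took most of the heavy chain signal. Its level was 5711, 2963, 4839 and 3906 CPM in knockout females, against 5461, 3432 and 6288 CPM in wild-type females. In males it was 4589, 4871, 5733 and 6053 CPM in knockouts, against 5586, 3097, 3840 and 5566 CPM in wild types. Every group but the knockout males held libraries below 4000 CPM, and the ranges of the groups overlapped in each comparison. The group means were 4355 ± 1185 CPM in knockout females (SD, n = 4), 5060 ± 1470 in wild-type females (n = 3), 5311 ± 694 in knockout males (n = 4) and 4522 ± 1254 in wild-type males (n = 4). The log2 fold change of knockout over wild type was -0.22 ± 0.27 (SE) in females and 0.23 ± 0.25 in males, with edgeR adjusted p of 1 and 0.999.

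Myh7, the slow heavy chain of fetal and stressed ventricle, spread more than any other tested member, with a highest level 3.51 times the lowest. It stood at 144, 51.7, 73.6 and 68.2 CPM in knockout females, against 161, 69.1 and 167 CPM in wild-type females. Levels of 115, 145, 124 and 181 CPM were found in knockout males, against 155, 62.5, 67.5 and 163 CPM in wild-type males. The libraries fell into 6 of low and 9 of high level, with none between 73.6 and 115 CPM. Means were 84.4 ± 41.0 CPM in knockout females and 132 ± 54.9 in wild-type females, and 141 ± 29.4 in knockout males and 112 ± 54.6 in wild-type males. The log2 fold change under the knockout label was -0.65 ± 0.43 in females (unadjusted p = 0.15, adjusted p = 1) and 0.33 ± 0.40 in males (0.42 and 0.999). The difference between these effects was -0.98 ± 0.59 (unadjusted p = 0.12, adjusted p = 1), and none of them passed.

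The 6 libraries of low Myh7 are the same 6 that have a negative GC gradient. Of all tested genes 2.65% were likewise lower in each of these 6 than in any of the other 9, and 6.85% were higher. They also held the 6 lowest values of Tnni3, Myl2 and Myl3, 5 of the 6 lowest of Myh6, Myh7b, Tnnc1 and Mybpc3, and 4 of the 6 lowest of Tnnt2. After each library's gene levels were centred within 20 bins of spliced-transcript GC content, Myh7 stood at 55.5 to 81.9 CPM in these 6 and at 107 to 171 CPM in the other 9. Myl2 likewise kept all 6 of its lowest values there, whereas for Tnni3 and Myl3 the count was 4 of 6. In the libraries of positive gradient alone, the log2 fold change of Myh7 under the knockout label was -0.19 ± 0.25 in females (1 against 2 libraries) and -0.17 ± 0.18 in males (4 against 2), and the difference between them was -0.02 ± 0.31. With the gradient as a covariate these were -0.45 ± 0.16, 0.11 ± 0.15 and -0.56 ± 0.22, with adjusted p of 0.974, 1 and 0.999. The split by gradient was chosen after the data were seen and is also a split by Myh7 level. It keeps only the 9 libraries of high Myh7, so smaller differences of Myh7 there are partly built into the choice. The part of the gradient in the group differences was not tested.

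**Figure D2:**
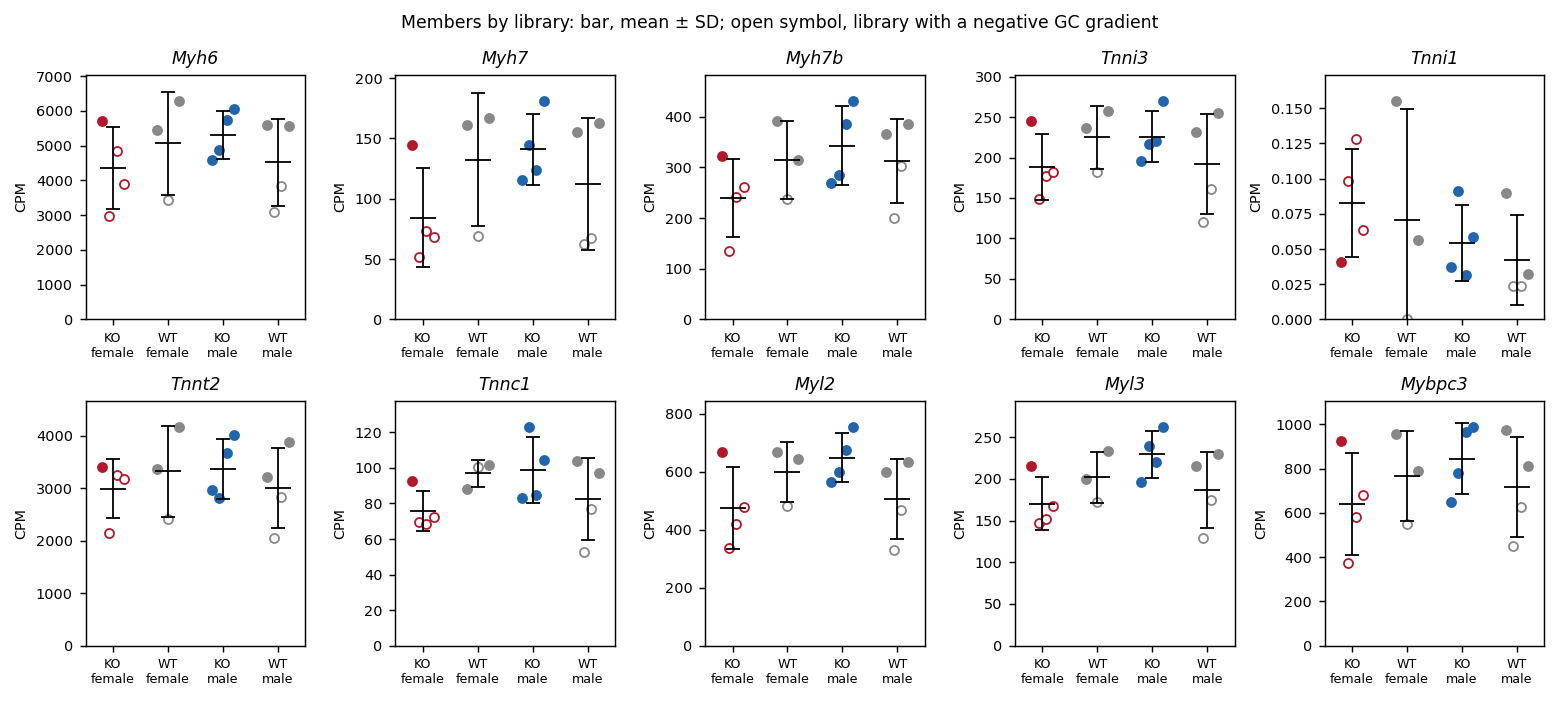
CPM of each gene in every library by label group, with knockout left of wild type in each sex; bars are mean ± SD and open symbols are the 6 libraries with a negative GC gradient. Myh7 lies at 51.7 to 73.6 CPM in these 6 and at 115 to 181 CPM in the other 9, and the groups overlap for each gene.

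Myh7b, a slow heavy chain gene best known as the host of miR-499, averaged 240.1 ± 77.6 CPM in knockout females and 314 ± 77.0 in wild-type females, and 343 ± 78.4 in knockout males and 313 ± 83.2 in wild-type males. Its log2 fold changes under the knockout label were -0.39 ± 0.29 in females and 0.13 ± 0.27 in males. Per kilobase, Myh6 held 90.2% to 93.6% of the sum of the 3 heavy chain genes over the 15 libraries, Myh7b 4.65% to 7.72% and Myh7 1.48% to 2.84%. The share of Myh7 was 1.48% to 1.93% in the 6 libraries of negative gradient and 2.06% to 2.84% in the other 9, without overlap.

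The ratio of Myh6 to Myh7, in reads per kilobase, was 37.9, 54.9, 63.0 and 54.8 in knockout females, against 32.5, 47.5 and 36.0 in wild-type females. It was 38.1, 32.2, 44.4 and 31.98 in knockout males, against 34.4, 47.5, 54.5 and 32.6 in wild-type males. Of the knockout females 3 of 4 lay above all 3 wild-type females, and replicate 1 lay among them. Mean log2 ratios were 5.69 ± 0.31 in knockout females and 5.25 ± 0.28 in wild-type females, a difference of 0.44 ± 0.23 (SE) or 1.36-fold (two-sided exact permutation p = 0.143, adjusted over 10 ratio tests 0.476). They were 5.18 ± 0.23 in knockout males and 5.37 ± 0.36 in wild-type males, a difference of -0.18 ± 0.21 (exact p = 0.400, adjusted 0.697). The effect in females minus that in males was 0.62 ± 0.31 (exact permutation p = 0.0710, adjusted 0.429). Knockout females exceeded knockout males by 0.51 ± 0.19 or 1.42-fold (exact p = 0.0857, adjusted 0.429), and wild-type females differed from wild-type males by -0.11 ± 0.24 (exact p = 0.714, adjusted 0.886). With these group sizes 1 pair of groups can reach an exact p of 0.0286 at the least, before adjustment. Adjusted over 10 tests, a single pair at that floor cannot pass. Most of the 10 tests would have to lie about as low with it. For both ratios, the failure of the pair tests after adjustment was thus nearly fixed in advance and does not speak against a difference. The floor for the difference of effects is lower, at 0.000408 before adjustment.

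The ratio parted by the sign of the GC gradient without overlap: 47.5 to 63.0 in the 6 libraries with a negative gradient and 31.98 to 44.4 in the other 9. Within the 6 it did not rise as the gradient fell. It was 63.0 at -0.32 (knockout female replicate 3) and 47.5 at -0.64 (wild-type female replicate 2). Among libraries of positive gradient the difference in log2 ratio was 0.15 between the 1 knockout female and the 2 wild-type females, and 0.12 between the 4 knockout males and the 2 wild-type males. The difference between knockout females and males was 0.06 there. The gradient also parts the libraries by this ratio, and the split keeps only those of 31.98 to 44.4. Smaller differences in the ratio there are therefore partly built into the choice. Myh6 and Myh7 transcripts have similar GC contents of 56.4% and 54.7%, and after the shift of each GC bin was taken out the differences were 0.44 in females and -0.20 in males. These GC contents leave out the introns that were counted, so the shift may not remove all of an effect of GC. The part of the libraries' other properties in the ratio was not tested.

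**Figure D3:**
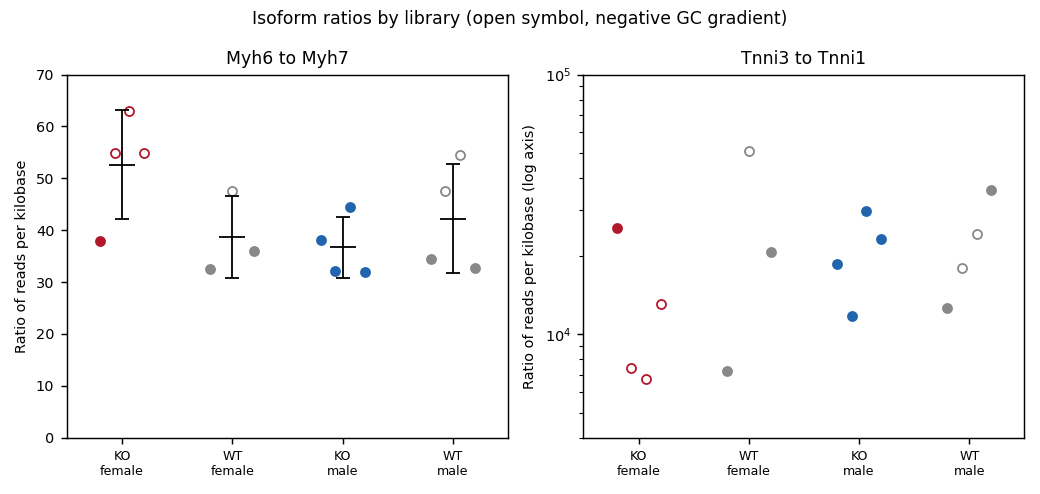
Ratios of reads per kilobase of Myh6 to Myh7 (left, linear axis, bars are mean ± SD) and of Tnni3 to Tnni1 (right, log axis) by library, with open symbols for the 6 libraries of negative GC gradient. On the left, open symbols stand at 47.5 to 63.0 and filled ones at 31.98 to 44.4.

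Mhrt, a long noncoding RNA transcribed antisense to Myh7 and known in mouse heart as a partner of chromatin remodelling, bears on the reading of Myh7. Its span overlaps 15.3% of the Myh7 span, and that of the plus-strand gene Gm31251 overlaps 51.0%. That reads were counted by strand is known only from an abbreviation in the table's name, so reads of these genes may not be fully told apart from those of Myh7. Mhrt had 370, 180, 349 and 326 CPM in knockout females, against 363, 227 and 406 CPM in wild-type females. In males it had 274, 254, 435 and 392 CPM in knockouts, against 360, 214, 303 and 393 CPM in wild types. Its reads exceeded those of Myh7 by 1.75 to 4.78 times in the 15 libraries, and those of Gm31251 did so by 2.68 to 6.19 times. Mhrt gave log2 fold changes of -0.12 ± 0.29 in females and 0.09 ± 0.27 in males under the knockout label, with adjusted p of 1 and 0.999.

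Tnni3, the inhibitory troponin subunit of the adult heart, stood at 245, 148, 177 and 183 CPM in knockout females, against 236, 182 and 257 CPM in wild-type females. It was 196, 216, 221 and 270.1 CPM in knockout males, against 231, 120, 162 and 254 CPM in wild-type males. The lowest values were again those of the libraries with a negative gradient. The log2 fold change under the knockout label was -0.26 ± 0.24 in females and 0.23 ± 0.22 in males (adjusted p of 1 and 0.999).

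Tnni1, the slow skeletal and fetal troponin I, had 52 reads in all 15 libraries together. Counts were 2, 6, 5 and 3 in knockout females, against 4, 0 and 3 in wild-type females, and 1, 7, 2 and 8 in knockout males, against 6, 1, 1 and 3 in wild-type males. In these libraries 3 reads, taken as the floor, equal 0.0219 to 0.117 CPM, so 9 of the 15 values lie at or under it. Pooled over each group, Tnni1 was at 0.0820 CPM in knockout females (exact Poisson 95% interval 0.0469 to 0.133) and 0.0671 CPM in wild-type females (0.0270 to 0.138). The corresponding values were 0.0596 CPM in knockout males (0.0353 to 0.0941) and 0.0448 CPM in wild-type males (0.0223 to 0.0801). The pooled ratio of knockout to wild type was 1.22 in females (exact 95% interval 0.476 to 3.51) and 1.33 in males (0.595 to 3.12). The counts therefore do not exclude ratios within these bounds. These intervals cover counting error only.

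From the pooled reads, Tnni3 exceeded Tnni1 per kilobase by 12220 times in knockout females (exact 95% interval 7524 to 21381) and 18669 times in wild-type females (9059 to 46439), and by 21569 times in knockout males (13647 to 36396) and 24628 times in wild-type males (13763 to 49339). The intervals of all 4 groups overlap. These ratios depend on the gene spans of 31.6 kb for Tnni1 and 5.93 kb for Tnni3. In reads alone, Tnni3 exceeded Tnni1 by 3558 times over all 15 libraries (exact 95% interval 2713 to 4764). Per library, with 0.5 counts added, the mean log2 ratio was 13.48 ± 0.89 in knockout females and 14.26 ± 1.41 in wild-type females, a difference of -0.79 ± 0.93 (exact permutation p = 0.429, adjusted 0.697). It was 14.27 ± 0.57 in knockout males and 14.36 ± 0.64 in wild-type males, a difference of -0.10 ± 0.43 (exact p = 0.800, adjusted 0.886). The female effect minus the male one was -0.69 ± 1.02 (exact p = 0.488, adjusted 0.697). Knockout females differed from knockout males by -0.79 ± 0.53 (exact p = 0.200, adjusted 0.5), and wild-type females from wild-type males by -0.10 ± 0.88 (exact p = 0.886, adjusted 0.886). In the wild-type female replicate 2 the ratio rests on 0 reads of Tnni1, and without it the difference between females was -0.10.

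Tnnt2 averaged 2996 ± 569 CPM in knockout females and 3323 ± 875 in wild-type females, and 3374 ± 571 in knockout males and 3005 ± 763 in wild-type males, with log2 fold changes under the knockout label of -0.15 ± 0.24 in females and 0.17 ± 0.22 in males. Tnnc1 stood at 92.8, 69.6, 68.3 and 72.6 CPM in knockout females, against 88.3, 101 and 102 CPM in wild-type females. The knockout females except replicate 1 lay below every wild-type female. In males it was 83.1, 123, 85.0 and 104 CPM in knockouts, against 104, 52.7, 76.9 and 97.3 CPM in wild types. Its log2 fold change was -0.35 ± 0.21 in females and 0.26 ± 0.19 in males, and the difference between these effects, -0.61 ± 0.28, had the smallest p of any member in that comparison (unadjusted p = 0.0494, adjusted p = 1). In the libraries of positive gradient alone that difference was -0.02 ± 0.30.

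Myl2 was measured at 666, 336, 419 and 478 CPM in knockout females, against 669, 479.9 and 645 CPM in wild-type females. Its levels were 564, 598, 673 and 754 CPM in knockout males, against 598, 329, 467 and 633 CPM in wild-type males. The knockout males spanned the upper part of the range, and all groups overlapped. The log2 fold change was -0.33 ± 0.24 in females and 0.35 ± 0.23 in males, with a difference of -0.69 ± 0.33 (unadjusted p = 0.0593, adjusted p = 1). Myl3 averaged 170.5 ± 31.5 CPM in knockout females and 202 ± 30.9 in wild-type females, and 229 ± 28.2 in knockout males and 187 ± 45.4 in wild-type males. Between the knockout groups Myl3 was lower in females by a log2 fold change of -0.43 ± 0.18, the smallest p of any member there (unadjusted p = 0.0342, adjusted p = 0.757). Mybpc3 averaged 639 ± 229 CPM in knockout females and 766 ± 205 in wild-type females, and 845 ± 161 in knockout males and 715 ± 226 in wild-type males.

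As a list, the estimates of the members lay on 1 side in every comparison but the average over the sexes, and none passed edgeR's quasi-likelihood test with Benjamini-Hochberg adjustment. In females 9 of 9 tested members had a lower estimate under the knockout label, with a median log2 fold change of -0.26, against 0.03 over all tested genes. None was called at an adjusted p below 0.05, where 0% of all genes were called by edgeR (303 genes had an unadjusted p below 0.05, DESeq2 called 3 and limma-voom 1). In males 9 of 9 had a higher estimate, with a median of 0.24, against 0.02 over all genes, and none was called, where 0.0115% of genes were (Pgr and Gm32014). For the female effect minus the male one 9 of 9 were negative with a median of -0.52, against 0.02, with none called and 0% of genes called (435 at an unadjusted p below 0.05, DESeq2 1 and limma-voom 0). Averaged over the sexes 4 were higher and 5 lower, with a median of -0.0089, none called and 0.0172% of genes called. The members share libraries and overlap in what they measure, so 9 genes on 1 side are not 9 independent observations.

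Between the sexes, knockout females had a lower estimate than knockout males for 9 of 9 members, with a median of -0.40, against 0.01 over all genes. None was called, where 0.0229% of genes were (Xist, Atp2b2, Gm29650 and Usp9y). Wild-type females had a higher estimate than wild-type males for 9 of 9, with a median of 0.16, against -0.0032 over all genes, and none was called, where 0% of genes were (364 at an unadjusted p below 0.05, DESeq2 14 and limma-voom 6). These comparisons share groups with the ones before. In terms of group means, knockout males were the highest and knockout females the lowest for 9 of 9 members, and no member had groups that did not overlap in any of the 4 comparisons of a pair of groups. Over all tested genes, the groups did not overlap in either direction for 1.92% in knockout against wild-type females, 1.6% in knockout against wild-type males, 3.18% in knockout females against males and 2.95% in wild-type females against males. Knockout males are the group with none of the 6 libraries of negative GC gradient, and knockout females the one with most. In libraries of positive gradient alone, the estimate was lower under the knockout label for 7 of 9 members in females and for 7 of 9 in males. This split leaves out the 6 lowest values of Myh7, Tnni3, Myl2 and Myl3.

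**Figure D4:**
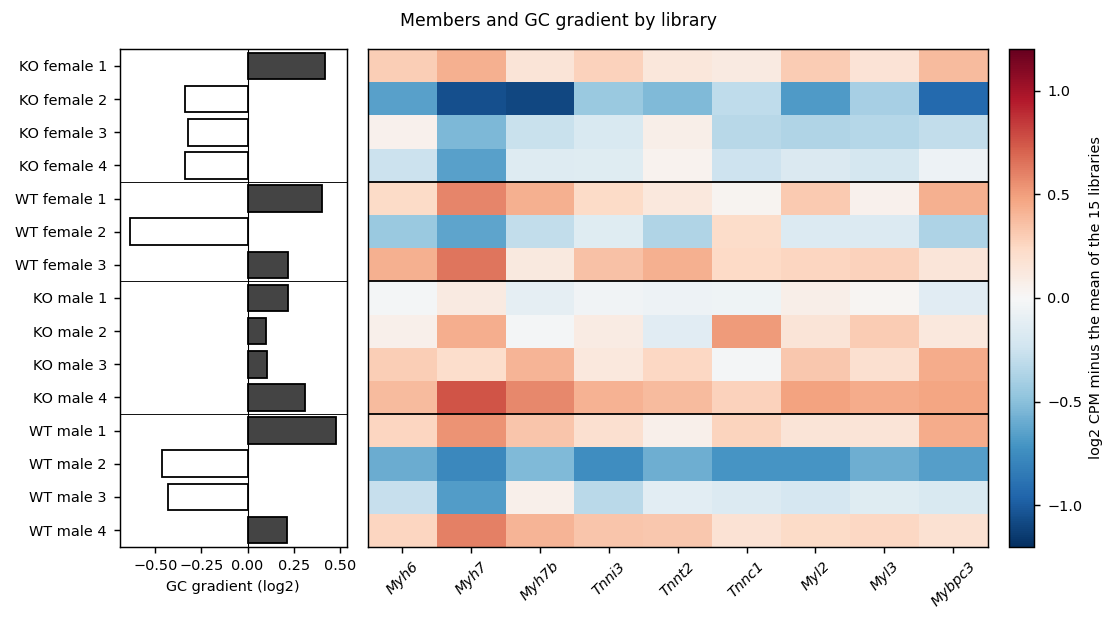
GC gradient of each library (left, log2) and level of the 9 tested members (right, log2 CPM minus the gene's mean over the 15 libraries), with libraries in rows by label group. The 6 rows with a gradient of -0.64 to -0.32 are those where Myh7 is lowest, at 51.7 to 73.6 CPM.

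**Figure D5:**
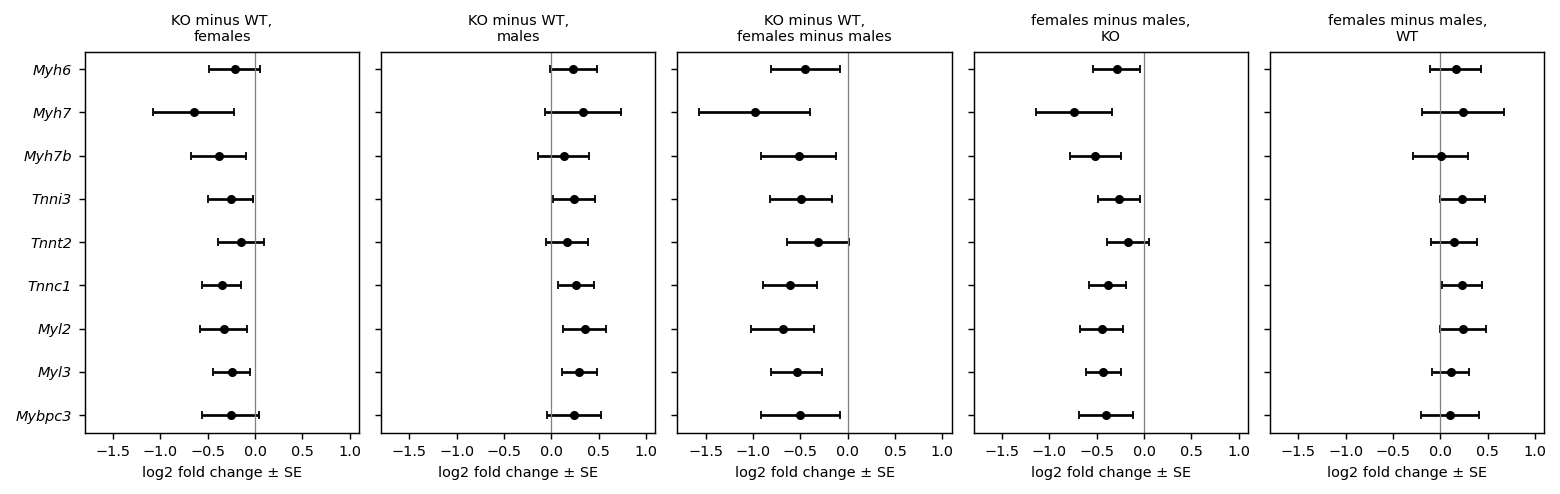
Log2 fold change ± SE of the 9 tested members in the 5 comparisons from the edgeR fit. Estimates lie below 0 for 9 of 9 in knockout over wild type in females and above 0 for 9 of 9 in males, and no adjusted p passed.

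Other genes of the contractile apparatus were read from a list of 31, of which 21 were tested. In females 17 of 21 had a lower estimate under the knockout label (median log2 fold change -0.19), in males 13 of 21 a higher one (0.10), and none was called. Mybpc2, the fast skeletal myosin-binding protein C, had 2.69 ± 1.41 CPM in knockout females and 4.79 ± 1.64 in wild-type females, and Lmod2, which elongates thin filaments, had 184 ± 17.1 CPM in knockout females and 224 ± 35.2 in wild-type females (unadjusted p of 0.0415 and 0.0498, adjusted p of 1). Actc1, the cardiac actin, stood at 632 ± 101 CPM in knockout males and 490 ± 87.2 in wild-type males, with a log2 fold change of 0.37 ± 0.17 (unadjusted p = 0.0467, adjusted p = 0.999). Acta1, the skeletal actin of fetal and stressed heart, had 71.2, 178, 89.5 and 154 CPM in knockout males, against 93.7, 39.0, 89.8 and 75.4 CPM in wild-type males, a log2 fold change of 0.73 ± 0.35 (unadjusted p = 0.0553). The atrial light chains Myl7 and Myl4 averaged 1.55 ± 1.15 and 10.2 ± 3.27 CPM over the 15 libraries, and neither passed in a comparison. The skeletal heavy chains Myh1, Myh2, Myh3, Myh4 and Myh8 were near the floor, with 7 to 66 reads in all libraries together, unlike the skeletal Mybpc2.

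Genes known to set the choice of isoform were read from a list of 26, of which 22 were tested. In females 11 of 22 had a lower estimate under the knockout label (median log2 fold change -0.0011) and in males 10 of 22 (0.01), and none was called. Thrb and Thra, receptors of the thyroid hormone that drives the switch to Myh6, averaged 1440 ± 202 and 44.9 ± 9.72 CPM over the 15 libraries. Hopx, a homeodomain cofactor, had 111 ± 21.9 CPM in knockout males and 90.9 ± 21.6 in wild-type males, with a log2 fold change of 0.29 ± 0.18 (unadjusted p = 0.139). Pura, which binds heavy chain gene sequences, had 19.5 ± 1.26 CPM in knockout males and 24.9 ± 6.48 in wild-type males (log2 fold change -0.35 ± 0.22, unadjusted p = 0.135). Sox6, a repressor of slow fibre genes in skeletal muscle, had 1677 ± 160 CPM in knockout males and 1944 ± 495 in wild-type males (-0.21 ± 0.19). The adjusted p of these 3 genes was 0.999 in males.

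The genes nearest in pattern were sought among 11340 named genes of at least 1 CPM, by the mean absolute difference of log2(CPM + 0.5), each taken from its own mean over the 15 libraries. For Myh6 the nearest were Adamtsl5 (0.068), Inha (0.075) and Rps6kb2 (0.078), where the median gene stood at 0.36. For Myh7 they were Tmem150a (0.23), Flnc (0.23) and Hspb7 (0.23), against a median of 0.60. Flnc, which encodes filamin C of the Z-disc, spanned 47.1 to 155 CPM, and Hspb7, a small heat shock protein of heart, 64.4 to 183 CPM. For Tnni3 they were Crip2 (0.085), Tmem259 (0.087) and Vps9d1 (0.087), against 0.33. For Tnni1, which had 0 to 8 reads a library, they were Add1 (0.055), Utp6 (0.055) and Tut7 (0.061), against 0.21. Tnni1 lay at 0 to 0.155 CPM, under the 0.5 CPM added, which leaves its pattern nearly flat. The search then returns genes that vary little, such as Add1 at 73.0 to 87.8 CPM, so no shared pattern with Tnni1 can be read from it.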

How the data were processed

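RNA from Pcm1-sorted nuclei was sequenced in 15 libraries grouped by the labels of genotype and sex. Raw counts per gene are the deposited unit, and per the submitters' processing notes reads were aligned with STAR 2.5.3a and counted with featureCounts 1.5.0 on GRCm38 (mm10). In the table used here, the length of every gene (100%) equals its span, so counts include introns. The table's name holds abbreviations for paired ends, reversed strand and a quality limit, whose meaning no source used here spells out.

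Counts were fitted in R 4.3.3 with edgeR 4.0.16 (filterByExpr, TMM, glmQLFit with robust dispersion, glmQLFTest) on all 15 libraries with 1 mean per group, which left 11 residual degrees of freedom. All 17455 tested genes were adjusted together by the Benjamini-Hochberg method, with calls below 0.05. Standard errors come from the estimate and its F statistic. The fit was tested on simulated counts in which all genes shared the same dispersion. They held no GC gradient and no marker differences between libraries, so that test does not measure the power to call a gene here. Ratios are of counts per kilobase with 0.5 counts added, compared in Python 3 by two-sided exact permutation (35 splits in females, 70 in males, 2450 for the difference of effects) and adjusted over 10 tests. Depth ran from 24397346 to 139418751 counts. Intervals and floors (3 counts) cover counting error alone, because no molecular identifiers separate reads from molecules.

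The alternatives were limma 3.58.1 (voom), DESeq2 1.42.0, other scalings, no filter, the replicate number as a block, a score of non-myocyte markers and leaving out libraries, and, chosen after seeing the data, corrections and splits by GC gradient. GC contents come from the spliced GENCODE transcripts of GRCm38, although the counts include introns. Sequences come from RefSeq (GRCm38.p6). Same-numbered libraries correlated in their deviations by 0.14 to 0.73 between the male groups, 0.51 to 0.86 between the knockout groups and 0.31 to 0.88 between the wild-type groups. Between the female groups the range was -0.38 to 0.75. A library correlated best with its own number in 3 of 4 male, 3 of 4 knockout, 1 of 3 wild-type and 2 of 3 female pairs. Whether the numbers mark pairs is therefore not settled. The main tests do not use the numbers, and the block changed no call of a member. Named genes are all 10 members, Pgr and Pcm1, and, of the lists, called genes, up to 6 with the smallest p in a knockout comparison, and Mhrt, Myl7, Myl4, Actc1 and Acta1, with the 3 nearest genes of Myh6, Myh7, Tnni1 and Tnni3. The members and lists were chosen with earlier results of these data known.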

Additional observations from a re-analysis of the deposited data

Results flagged for a closer look

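Among 36 sets of 4 libraries (10 genes and 2 ratios in 3 groups), 1 held a library whose gap to the nearest other, over the range of the group, passed Dixon's 95% critical value. It was Tnni1 in wild-type males, with a gap of 0.868 of the range. Replicate 1 stood at 0.0901 CPM, which is 6 reads, against 0.0236 to 0.0324 CPM in the other 3, which is 1 to 3 reads. Chance flags about 1 in 20 such sets. For no member did the knockout and wild-type libraries separate in opposite directions in the 2 sexes.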

How the results depend on the processing

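No member was called in any of 186 fits of a comparison, and the lowest adjusted p of a member was 0.245 (Myl3, knockout females minus knockout males, without knockout female replicate 1). Of 684 estimates of members under alternatives other than leaving out 1 library, 640 kept their direction, and of 675 with 1 library left out 664 did. The GC alternatives were chosen after seeing the data. The score of non-myocyte markers is the mean log2(CPM + 0.5) of the endothelial, fibroblast and mural genes. Its largest gap split the libraries into 6 high (4.68 or more) and 9 low (3.22 or less). The high marker libraries are replicates 1 and 2 of each knockout group and replicate 1 of each wild-type group. The cause of the changes below was not tested.

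Counts of all called genes were 0, 2, 0 and 3 for the knockout label in females, in males, for their difference and for their average, and 4 and 0 for females minus males in knockouts and in wild types. DESeq2 gave 3, 4, 1 and 7, and 57 and 14. With limma-voom 1 was called for the label in females, and 10 and 6 between the sexes in knockouts and in wild types. The label in males lost its calls, with 0, under relative log expression factors, in the low marker or high marker libraries alone, without the 3 libraries that mix reads of both sexes, in a fit of the groups compared alone, with the GC gradient as a covariate and in the positive-gradient libraries alone. The average gave 1 in the high marker libraries, 1 without those 3 libraries and 0 in the positive-gradient libraries. The marker score as a covariate gave 1 for the label in females. Between the sexes, counts in knockouts and in wild types were 2 and 1 with no filter, 15 and 1 with the marker score, 1 and 1 in low marker libraries, 1 and 1 in high marker libraries, 7 and 6 without the 3 libraries, and 13 and 2 with the GC gradient. In knockouts the count was 1 in the fit of the groups compared alone, and in wild types 5 in positive-gradient libraries. With 1 library left out, counts ran from 0 to 1 for the label in males (each of the 15 libraries lowered it), 0 to 10 between the sexes in knockouts and 0 to 2 in wild types. In knockouts the count was 10, 9, 1 and 0 without female replicates 1, 2, 3 and 4, 2, 0, 0 and 0 without male replicates 1, 2, 3 and 4, and 2 without wild-type female replicate 3. In wild types it was 2 without male replicate 2.

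With the replicate number as a block, 0 genes were called for the label in females, 2 in males, 0 for their difference and 3 on average, and 13 and 1 between the sexes in knockouts and in wild types. With GC-bin offsets beside the replicate block the last pair was 16 and 1. The paired log2 ratio of Myh6 to Myh7 differed by 0.41 between female labels and -0.18 between male labels, by 0.65 for their difference, and between the sexes by 0.51 in knockouts and -0.23 in wild types. The block turned the log2 Tnni3 to Tnni1 ratio of wild-type females minus males to 0.16, and with GC-bin offsets also to 0.16.

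Knockout minus wild type in males turned in the high marker libraries to -0.22 for Myh6, -0.23 for Myh7, -0.38 for Myh7b, -0.14 for Tnni3, -0.13 for Tnnt2, -0.016 for Myl2 and -0.42 for Mybpc3. Replicate 1 was the only wild-type male there, and it had the highest GC gradient of all libraries, 0.48. In the positive-gradient libraries the male difference turned to -0.067 for Myh6, -0.17 for Myh7, -0.13 for Myh7b, -0.10 for Tnni3, -0.075 for Tnnt2, -0.021 for Tnnc1 and -0.072 for Mybpc3. Myh7b was -0.033 without those 3 libraries and -0.013 with the GC gradient. In females, Myl2 turned to 0.014 and Mybpc3 to 0.078 in positive-gradient libraries, and Myh6 to 0.20 and Tnnt2 to 0.25 in negative-gradient ones. The positive-gradient set holds only replicate 1 of the knockout females, and the negative-gradient set only replicate 2 of the wild-type females. The difference between the label's effects turned in positive-gradient libraries to 0.018 for Myh6, 0.083 for Tnni3 and 0.15 for Mybpc3.

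Females minus males in knockouts turned in positive-gradient libraries to 0.11 for Myh6, 0.038 for Myh7, 0.12 for Tnni3, 0.019 for Tnnt2, 0.048 for Myl2 and 0.14 for Mybpc3, and with the GC gradient to 0.012 for Tnnt2. In wild types Myh7b turned to -0.013 with no filter, -0.099 in low marker libraries, -0.030 with the GC gradient, -0.079 in positive-gradient and -0.083 in negative-gradient libraries. High marker libraries, with only replicate 1 in each wild-type group, gave -0.021 for Myh6, -0.22 for Tnnc1, -0.091 for Myl3 and -0.0099 for Mybpc3. Positive-gradient libraries gave -0.062 for Tnnc1, -0.017 for Myl3 and -0.014 for Mybpc3, and negative-gradient ones -0.016 for Myh6 and -0.017 for Tnnt2.

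With 1 library left out, females minus males in wild types ran from -0.19 to 0.17 for Myh7b, -0.094 to 0.29 for Mybpc3, -0.026 to 0.38 for Myh6, -0.054 to 0.33 for Tnnt2 and -0.021 to 0.24 for Myl3. Tnnt2 ran from -0.34 to 0.049 for the label in females, where wild-type female replicate 3 turned it, and Myh7b from -0.039 to 0.25 for the label in males, where wild-type male replicate 2 did.

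The log2 ratio of Myh6 to Myh7 for the label in males was 0.026 in high marker libraries and 0.12 in positive-gradient ones. There the difference between the label's effects was 0.032, knockout females minus males 0.061 and wild-type females minus males 0.029. With 1 library left out the wild-type difference ran from -0.27 to 0.020. The log2 ratio of Tnni3 to Tnni1 for the label in females was 0.94 in high marker libraries, 0.10 without the 3 libraries, 1.07 in positive-gradient and -2.55 in negative-gradient libraries. For the label in males it was 0.20 with 5 counts added, 0.073 in low marker and 0.23 in high marker libraries, and -0.34 to 0.16 with 1 library left out. The difference of effects was 0.71 in high marker libraries, 0.27 without the 3 libraries and 1.18 in positive-gradient libraries. Knockout females minus males gave 0.38 in positive-gradient libraries. Wild-type females minus males gave 0.38 in low marker and 1.28 in negative-gradient libraries, and -0.78 to 0.62 with 1 library left out. Where a set left a group with 1 library, edgeR assumed that it varies like the others, and the ratio was given without a test. Depth limits Tnni1, at 0 to 8 reads a library.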

Other observations

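Skeletal actin had a larger fold change between the knockout groups than any of the 9 tested myosin, troponin and binding protein genes, a contrast picked after its values were seen. Acta1 stood at 64.5, 39.5, 44.1 and 66.5 CPM in knockout females, against 71.2, 178, 89.5 and 154 CPM in knockout males, a log2 fold change of -1.2 ± 0.35 (unadjusted p = 0.00429, adjusted p = 0.757). The knockout groups do not overlap, as was found for 3.18% of all tested genes, and wild-type females at 44.9 to 95.3 CPM overlap wild-type males at 39.0 to 93.7 CPM. The read ratio of cardiac Actc1 to skeletal Acta1 was 8.95 to 14.1 in knockout females and 3.59 to 7.63 in knockout males, and 7.04 to 12.6 in wild-type females and 5.52 to 9.29 in wild-type males. Of the knockout females, replicates 2, 3 and 4 have a negative GC gradient and none of the knockout males does, and replicate 1, of positive gradient, stood at 64.5 CPM. In the comparison between the knockout groups 0.0229% of all tested genes were called, and Acta1 was not among them.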
